A study of Mus musculus with 8 samples.

Results

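The CD11b- sort is one of a pair of bone marrow cell populations that the study collected from mice, and it makes up 4 of the 8 libraries of the series. Its members are the 4 libraries that the labels call CD11b-, biological replicates 1 to 4, and they are described here by themselves. Femoral marrow came from untreated C57BL/6 mice that carry the Csf1r-EGFP transgene, in which the promoter of the growth factor receptor gene Csf1r drives green fluorescent protein. Cells were sorted as positive for F4/80, VCAM1 and the fluorescent protein and negative for the integrin CD11b. The labels call these cells "macrophage", in quotation marks, and the series title asks whether such sorts hold macrophages or other cells that carry pieces of them. SmartSeq2, a protocol that copies whole transcripts from small amounts of RNA, gave the libraries. The sources used here do not give age, sex or the number of mice behind each replicate. The CD11b+ sort is not analysed here, so no level below is set against another population.

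Resident macrophages of the marrow sit at the centre of erythroblastic islands, clusters in which red cell precursors divide, fill with hemoglobin and shed their nuclei. F4/80, encoded by Adgre1, and VCAM1 are surface proteins used to recognise these macrophages. Red cell precursors are recognised by the transcription factors Gata1 and Klf1, by the enzymes of heme synthesis and by red cell membrane proteins.

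The 4 libraries held 27337092 to 34996595 counts over named genes, and 13010 to 13624 of 18790 named genes had at least 1 count in a library. A count of 0 allows up to 3 counts, which is 0.0857 to 0.110 CPM (counts scaled to 1000000 per library) in these libraries. Without molecular identifiers, this limit covers only the error of counting reads. CPM is a share of reads and favours long transcripts. Levels of different genes were therefore compared as TPM, which is counts per kb of exon, scaled in the same way, and was computed here. The 10 most abundant genes took 7.99% to 9.38% of the counts of a library and the 100 most abundant 24.6% to 27.3%.

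Transcripts of red cell precursors led all 4 libraries. The globin genes were not analysed here, so every rank given is among the genes analysed and leaves globin out. Car2, a carbonic anhydrase of red cells, stood at 11337, 9617, 15532 and 15661 CPM in replicates 1 to 4, which is 18392 ± 4162 TPM (SD, n = 4). Rhd, the mouse gene of the Rh blood group antigen, stood at 7701, 7110, 10187 and 8332 CPM, or 17881 ± 2839 TPM. Car2 and Rhd filled the first and the second place per length in every library, Rhd first in replicates 1 and 2 and Car2 first in replicates 3 and 4. Their means lie closer together than the spread of either gene over the libraries. Fech encodes ferrochelatase, which inserts iron into the heme ring. It led by mean share of reads, with 13224, 13186, 15433 and 14968 CPM. Its annotated exons add up to 13.8 kb, so per length it reached 3511 ± 273 TPM and ranked between 17 and 23. Fech thus had the highest mean CPM, above Car2 in replicates 1 and 2 and below it in replicates 3 and 4, but was not among the 10 highest genes per length.

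Further genes completed the upper end per length after Car2 and Rhd. Gpx1, a peroxide-removing selenoenzyme, stood at 13257 ± 2823 TPM. Hemgn, a nuclear protein of hematopoietic cells that is abundant in erythroblasts, stood at 11306 ± 3976 TPM, and the protease gene Ctse, also present in red cells, at 9538 ± 1470 TPM. Car2, Rhd, Gpx1, Hemgn and Ctse were among the 10 highest genes of all 4 libraries, while 15 genes entered the 10 highest of at least 1 library. Below them came the beta-tubulin Tubb5 (7288 ± 2683 TPM), the erythroid transcription factor Klf1 (6809 ± 894 TPM), the ribonucleotide reductase subunit Rrm2, which supplies DNA synthesis (6768 ± 1013 TPM), the surface glycoprotein Bsg (6011 ± 448 TPM) and the ubiquitin-conjugating enzyme Ube2l6 (5673 ± 481 TPM). Of the 100 highest genes of a library 77 were shared by all 4, and 127 entered at least 1 of the lists.

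Several of these leading genes differed between libraries. Hemgn stood at 8511, 8604, 11502 and 4507 CPM, a 2.55-fold range on the CPM + 1 scale that replicate 4 set at the low end. Tubb5 stood at 7596, 10339, 5869 and 4464 CPM, and the survival gene Bcl2l1, which protects late red cell precursors, at 7318, 9149, 8099 and 4233 CPM. All 3 were lowest in replicate 4. Gpx1 went the other way, with 4335, 4885, 6029 and 7111 CPM. Prss34, a protease gene of basophils, was the fourth most abundant gene per length in replicate 1 alone (11482 TPM) and ranked as low as 295 elsewhere.

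Genes of the surface proteins used for the sort were far down the ranking. Adgre1, which encodes F4/80, stood at 24.7, 32.1, 17.9 and 17.1 CPM, or 24.3 ± 7.67 TPM, and ranked between 4123 and 5603 per length. Vcam1 stood at 155, 115, 44.0 and 116 CPM, or 41.4 ± 17.8 TPM, and ranked between 2870 and 5489. Replicate 3 had less Vcam1 than the other 3 libraries. Csf1r, whose promoter drives the reporter, stood at 16.1, 31.5, 44.5 and 51.9 CPM, or 21.3 ± 9.17 TPM. The reporter transcript itself was not analysed here. Itgam, which encodes the CD11b that the gate required to be absent, stood at 8.59, 0.143, 15.3 and 9.33 CPM. It was close to absent in replicate 2 and detected in all 4 libraries. Ptprc, the pan-leukocyte antigen CD45, stood at 177, 147, 113 and 190 CPM, or 29.3 ± 6.19 TPM.

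The 9 macrophage and 10 erythroid marker genes used to check the label lay in ranges that overlapped at 1 gene. Macrophage markers ran from 0.412 ± 0.629 TPM for the sialic acid receptor Siglec1, with no count in replicates 3 and 4, to 322 ± 62.1 TPM for the complement gene C1qb. Erythroid markers ran from 251 ± 50.8 TPM for the erythropoietin receptor Epor to 18392 TPM for Car2. C1qb was the 1 macrophage marker whose mean lay above that of Epor. The full lists overlapped more. On the resident macrophage list Apoe, an apolipoprotein, reached 1190 ± 206 TPM, and on the erythroid lists the transcription factors Tal1 and Bcl11a stood at 45.2 ± 5.38 and 7.27 ± 2.42 TPM, the skeleton protein gene Ank1 at 40.0 ± 9.42, Pklr at 6.82 ± 5.44 and Alox15 at 1.61 ± 2.71 TPM. The most abundant transcripts were not those of the cell type in the label, and the population is called the CD11b- sort throughout. In bulk RNA, fewer cells of a type and less RNA per cell cannot be told apart, and this holds for every share of reads given here.

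**Figure D1:**
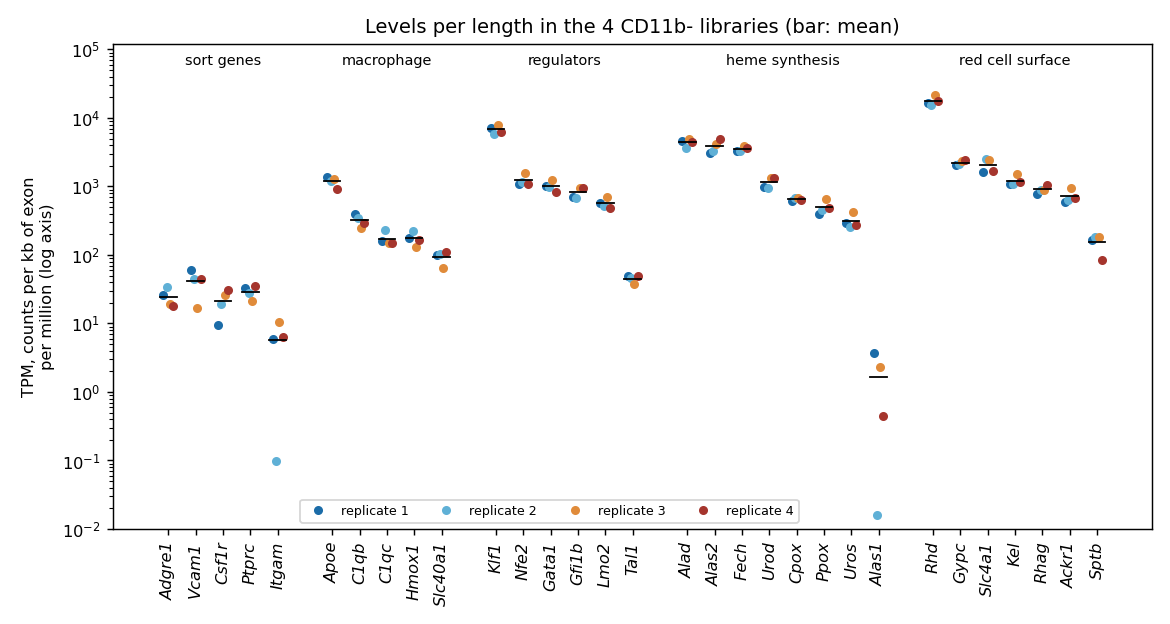
Levels per length (TPM, log axis) of 31 genes in the 4 CD11b- libraries, 1 point per library and a bar at the mean, grouped by role. Genes of the sort have means of 5.67 to 41.4 TPM, most heme synthesis and red cell surface genes above 300 TPM, and Alas1 near the bottom.

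Summed over lists of genes for each cell type, the erythroid genes took 7.85%, 7.71%, 9.87% and 9.19% of the reads of replicates 1 to 4 (8.65% ± 1.05, SD, n = 4, 67 measured genes). These genes were 17 of the 100 most abundant per length. The globin genes and a few other members were not analysed here, so this share leaves out globin. Cell division genes took 2.90% ± 0.204 (30 genes) and lysosome genes 0.710% ± 0.0422 (17 genes). The primary granule list, which also holds other genes of granulocyte precursors, took 0.361% ± 0.292. B cell precursor genes took 0.235% ± 0.0713, basophil and mast cell genes 0.193% ± 0.201 and resident macrophage genes 0.185% ± 0.0227. Stem and progenitor genes took 0.0785% ± 0.0188. The erythroid share exceeded the resident macrophage share in every library. Each list has its own number and length of genes, so the sums are shares of reads and not numbers of cells. The order of the small lists depends on length: as shares of counts per kb, basophil and mast cell genes took 0.535%, primary granule genes 0.468%, B precursor genes 0.334% and resident macrophage genes 0.283%. Without the 20 most abundant genes the erythroid share was 4.69%.

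The remaining lists were small. Mature B cell genes took 0.101% ± 0.0417, plasmacytoid dendritic cell genes 0.0566% ± 0.00687 and plasma cell genes 0.0546% ± 0.0256. Neutrophil genes took 0.0320% ± 0.0291 (0.0949% per kb), and monocyte, NK cell and T cell genes 0.0263%, 0.0264% and 0.0259%. Conventional dendritic cell genes took 0.0249%, eosinophil genes 0.0239%, megakaryocyte genes 0.0132%, endothelial genes 0.0102% and stromal genes 0.00444%. In the stromal list Col1a1 and Adipoq had no count in any library. In the endothelial list Flt4 had counts in replicate 2 only, while Pecam1, an adhesion protein that leukocytes also carry, stood at 52.5, 44.6, 26.1 and 34.5 CPM.

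**Figure D2:**
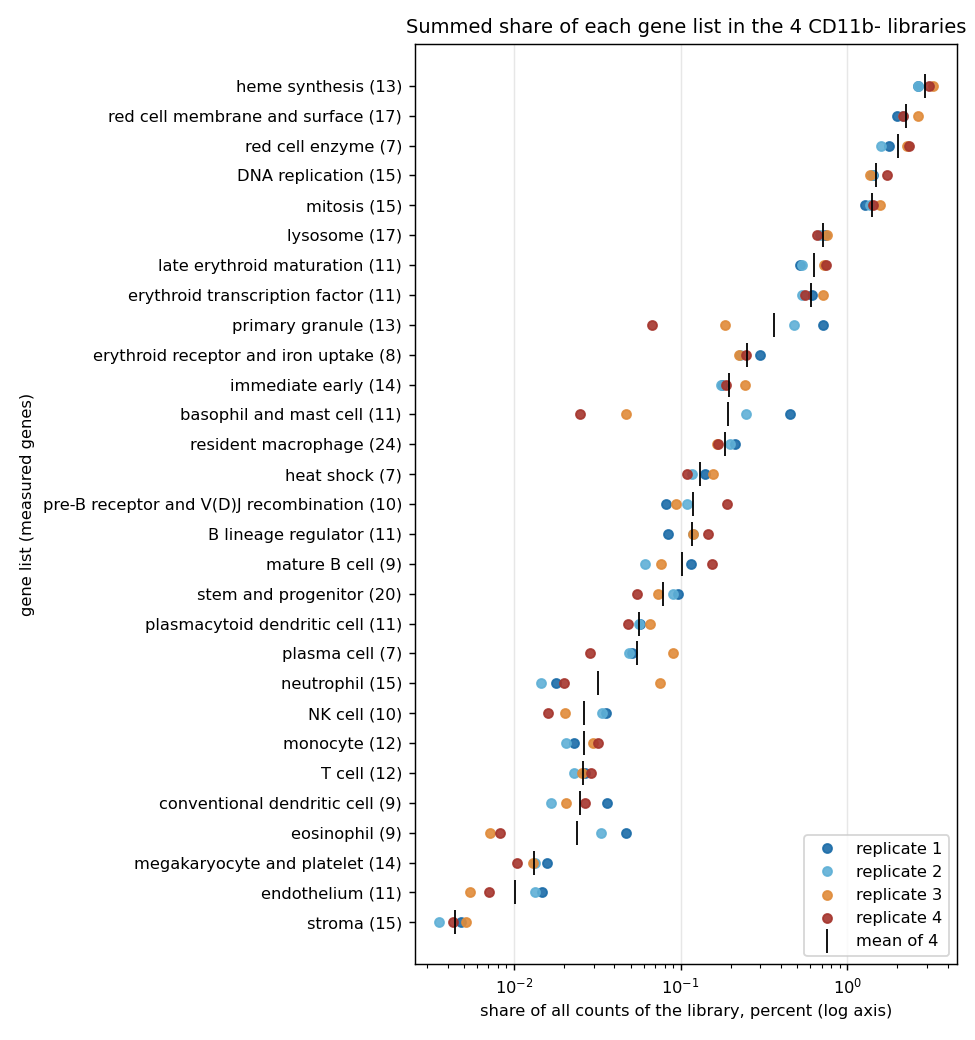
Summed share of reads (percent, log axis) of each gene list in the 4 CD11b- libraries, 1 point per library and a bar at the mean, with the number of measured genes in brackets. Erythroid and division lists lie highest with points close together, and the primary granule, basophil and mast cell, neutrophil and eosinophil lists spread widest.

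Among erythroid regulators, transcripts of the core transcription factors were present at steady levels. Klf1 stood at 3220, 2589, 3511 and 2863 CPM. Gata1, the zinc finger factor that red cell precursors require, stood at 733, 698, 875 and 590 CPM, or 1017 ± 171 TPM. Nfe2, a leucine zipper factor of globin gene control, stood at 957, 1014, 1372 and 963 CPM, with replicate 3 above the other 3. Gfi1b and Lmo2, further erythroid regulators, reached 818 ± 152 and 569 ± 98.7 TPM, and Tal1 45.2 ± 5.38 TPM. Bcl11a, the repressor of fetal-type globin genes, was low at 7.27 ± 2.42 TPM. As a group the 11 factors took 0.607% ± 0.0815 of reads.

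Receptor and iron uptake genes followed. Tfrc, the transferrin receptor that brings iron into the cell, stood at 2204, 1486, 1515 and 1735 CPM (959 ± 179 TPM). Epor stood at 124, 162, 177 and 120 CPM. Neither ranked the libraries in the order of the other. Jak2, the kinase bound to the erythropoietin receptor, stood at 208, 184, 180 and 179 CPM, and its target Stat5a at 22.7, 25.0, 4.17 and 9.33 CPM. Stat5a was the 1 erythroid list member out of 64 with a mean of at least 10 CPM whose highest library was at least 4 times its lowest on the CPM + 1 scale. Over all 7649 genes of that level the share was 11.6%. It was 0.464% at 100 to 1000 CPM, where the median of the erythroid genes (422 CPM) lies.

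Heme synthesis genes took 2.92% ± 0.314 of reads. Alas2, the erythroid form of the first enzyme of the pathway, stood at 2145, 2315, 2874 and 3528 CPM, or 3861 ± 854 TPM. Alas1, the form used by other tissues, stood at 6.73, 0.0286, 4.23 and 0.805 CPM, or 1.63 ± 1.72 TPM. The erythroid form was thus abundant in all 4 libraries and the other form scarce in all 4. Along the pathway Alad reached 4409 ± 572 TPM, Uros 311 ± 76.6, Urod 1145 ± 216, Cpox 649 ± 32.3, Ppox 495 ± 112 and Fech 3511 ± 273 TPM. Uros had the lowest mean of these and Alad the highest. The mitochondrial iron importer Slc25a37 stood at 938 ± 156 TPM and the inner membrane transporter Abcb10 at 1278 ± 177 TPM.

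Genes of the red cell surface and membrane skeleton took 2.25% ± 0.286 of reads, with levels that spanned a wide range. Gypc, a glycoprotein that anchors the membrane skeleton, stood at 1412, 1409, 1575 and 1675 CPM (2226 ± 173 TPM). Slc4a1, the anion exchanger band 3, stood at 2290, 3575, 3437 and 2416 CPM (2053 ± 489 TPM). Sptb, the beta chain of spectrin, stood at 581, 642, 653 and 307 CPM (154 ± 47.0 TPM). Sptb was lowest in replicate 4, where Gypc was highest. Blood group genes were also present, with Kel at 1218 ± 215 TPM, the Duffy antigen gene Ackr1 at 714 ± 168 TPM and the Rh partner Rhag at 905 ± 123 TPM.

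Late maturation genes took 0.630% ± 0.118 of reads, and their members ranged from abundant to nearly absent. Xpo7, a nuclear export factor of erythroblasts, stood at 2883, 2863, 4257 and 4509 CPM (652 ± 153 TPM). Bnip3l, which directs the removal of mitochondria from reticulocytes, stood at 259, 302, 277 and 416 CPM (278 ± 60.0 TPM). Alox15, a lipoxygenase of reticulocytes, stood at 4.05 and 0.571 CPM in replicates 1 and 2 and had no count in replicates 3 and 4. Red cell enzyme genes, a separate list led by Car2, took 2.005% ± 0.375 of reads. In it Pklr, the pyruvate kinase gene of red cells and liver, was low at 6.82 ± 5.44 TPM. The antioxidant Prdx2 reached 2914 ± 275 TPM and Car1 2219 ± 323 TPM.

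The 64 erythroid genes with a mean of at least 10 CPM had a median 1.46-fold difference between highest and lowest library, against 1.89-fold over all 7649 genes of that level. The median level of the 67 measured erythroid genes was 422 CPM, and abundant genes of any kind varied less, as the values by level further on show. Over all genes the highest value lay in replicate 1 in 25.8% and in replicate 2 in 24.1%. Replicate 3 held the highest value of 31 of the 64 and replicate 4 of 22, against 19.7% and 30.5% of all genes. These counts move with the scaling. With TMM, edgeR's scaling to a trimmed mean of ratios, the genes highest in replicate 3 rose from 7 to 9 of 12 for heme synthesis, from 10 to 13 of 17 for membrane and surface and from 6 to 9 of 11 for transcription factors. Over all genes that share became 27.5%.

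The promoters of Rhd and Alas2 are printed because these are among the leading erythroid transcripts and each holds the letters AGATAA, which the GATA factors bind, in the 250 bases before the start site. Both come from RefSeq on GRCm38.p6, a later build than the one named for the files, and run 5′ to 3′ along the gene's strand, with the match in capitals. Rhd lies at chr4:134864286-134864535 on the + strand, with the match from position -43 counted from the start site. Alas2 lies at chrX:150547167-150547416 on the + strand, with the match from position -86 on the opposite strand, where it reads TTATCT in the printed direction.
Rhd: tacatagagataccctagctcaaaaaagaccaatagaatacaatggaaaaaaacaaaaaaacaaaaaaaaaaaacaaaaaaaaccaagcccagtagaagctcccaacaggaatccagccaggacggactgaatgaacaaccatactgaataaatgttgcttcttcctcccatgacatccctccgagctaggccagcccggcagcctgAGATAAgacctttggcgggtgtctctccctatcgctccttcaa
Alas2: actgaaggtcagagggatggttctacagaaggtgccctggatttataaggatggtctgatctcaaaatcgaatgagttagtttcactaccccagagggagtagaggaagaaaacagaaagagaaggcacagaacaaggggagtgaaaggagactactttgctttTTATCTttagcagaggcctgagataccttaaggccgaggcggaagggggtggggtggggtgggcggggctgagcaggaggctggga
The letters AGATAA on either strand were found in 10 of 70 promoters (14.3%) of the 48 erythroid list genes that could be matched to the table, out of 67, in 9.99% of all 32851 promoters of that length and in 6.00% of the 7621 promoters of genes with a mean of at least 10 CPM. These 2 promoters were picked for holding the letters, and a match describes the sequence only.

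Transcripts of dividing cells were abundant. Rrm2 stood at 4689, 5437, 5123 and 6692 CPM. Mcm6, a subunit of the replication helicase, stood at 1727, 1542, 1422 and 2039 CPM (1232 ± 184 TPM). Replicate 4 was highest for both. The DNA replication list summed to 14206, 14101, 13770 and 17354 CPM. In mitosis, the cyclin Ccnb2 stood at 1475, 1604, 1833 and 1599 CPM (3639 ± 345 TPM) and the kinase Plk1 at 912, 843, 990 and 821 CPM (1387 ± 123 TPM). Mki67, the proliferation antigen Ki-67, reached 588 ± 100 TPM. None of the 30 division genes reached a 4-fold range between libraries, against 11.6% of all genes with a mean of at least 10 CPM. Their median level was 703 CPM, and 0.464% of genes at 100 to 1000 CPM reached that range, so few would be counted. Replicate 3 was highest for 7 of 15 mitosis genes by CPM and for 13 of 15 with TMM scaling, against 19.7% and 27.5% of all genes, so that pattern depends on the scaling.

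B cell precursor transcripts were present in every library. They differed between libraries more than erythroid ones, which lay at a higher level (median 422 CPM against 47.6 CPM). Igll1, a surrogate light chain of the pre-B cell receptor, stood at 116, 323, 252 and 380 CPM (423 ± 179 TPM). Vpreb3, which accompanies that receptor, stood at 86.4, 119, 99.0 and 254 CPM (554 ± 302 TPM), and Cd79a, a signalling chain of the receptor, at 199, 224, 204 and 385 CPM (592 ± 201 TPM). Replicate 4 was highest in each. All 8 members of the pre-B receptor and V(D)J recombination list with a mean of at least 10 CPM were highest in replicate 4, both by CPM and with TMM scaling, against 30.5% of all genes (26.2% with TMM).

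Dntt, the polymerase that adds bases at V(D)J joins, stood at 5.11, 45.0, 44.1 and 76.1 CPM, and the interleukin 7 receptor Il7r at 7.47, 49.2, 37.4 and 61.3 CPM. Both were lowest in replicate 1 by a wide margin. Ebf1, an early B lineage factor, stood at 89.9, 294, 347 and 227 CPM and was lowest there too. The recombinase gene Rag1 stayed low at 2.39, 0.0286, 1.45 and 3.22 CPM, and Pax5, the factor that commits cells to the B lineage, at 2.08, 0, 2.78 and 2.71 CPM. Both were thus near 0 in all 4 libraries, and per length Pax5 reached 0.727 ± 0.50 TPM against 84.1 ± 39.5 TPM for Ebf1. The 18 genes of the 2 B precursor lists with a mean of at least 10 CPM had a median range of 3.16-fold. Of these, 6 reached 4-fold, against 11.6% of all genes and 15.7% of those at 10 to 100 CPM.

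Mature B cell genes did not share a single order. Cd74, the invariant chain of antigen presentation, stood at 716, 381, 484 and 1020 CPM (1320 ± 561 TPM), and the B cell antigen Ms4a1, or CD20, at 84.8, 27.5, 43.7 and 87.4 CPM. Replicates 1 and 4 were above replicates 2 and 3 in both. Fcer2a, the low-affinity IgE receptor CD23, stood at 35.6, 6.43, 1.45 and 31.9 CPM with the same split. Cd37, a tetraspanin of B cells, did not have it, with 74.5, 89.1, 85.7 and 158 CPM. Of plasma cell genes, Jchain, which joins immunoglobulin multimers, stood at 194, 215, 408 and 60.6 CPM and Sdc1 at 25.2, 19.4, 84.1 and 9.88 CPM, each highest in replicate 3 and lowest in replicate 4. The others differed: Mzb1, a secretory pathway protein of B and plasma cells, stood at 30.8, 38.0, 46.0 and 60.1 CPM and the transcription factor Irf4 at 11.4, 15.4, 4.45 and 20.2 CPM, both highest in replicate 4.

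Resident macrophage transcripts formed a mixed set. The 24 genes of the list summed to 2113, 1966, 1650 and 1669 CPM, a 1.28-fold range. Apoe, an apolipoprotein that macrophages secrete, stood at 868, 735, 796 and 574 CPM (1190 ± 206 TPM) and was the most abundant member, but it is not made by macrophages alone. Complement genes C1qb and C1qc stood at 125, 110, 79.2 and 95.4 CPM and at 91.4, 128, 83.7 and 86.6 CPM. These were detected at like levels in all 4 libraries. The iron exporter Slc40a1, which erythroblasts also express, stood at 266, 268, 167 and 297 CPM, and the heme-degrading enzyme Hmox1 at 91.6, 114, 66.4 and 86.8 CPM. Fcna, a ficolin, stood at 138, 91.5, 57.9 and 86.2 CPM, and the splenic macrophage factor Spic at 17.8, 49.9, 17.4 and 30.3 CPM.

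Several defining macrophage genes were near 0, and others were uneven. Siglec1 stood at 2.78, 0.657, 0 and 0 CPM. Vsig4, a complement receptor of tissue macrophages, had counts in replicate 3 only (1.42 CPM). The Fc receptor Fcgr1 stood at 0.528, 5.69, 0.772 and 0 CPM. Mertk, a receptor for dying cells, was uneven at 0.986, 8.72, 0.0309 and 11.0 CPM. Higher but also uneven were the mannose receptor Mrc1 (30.9, 1.63, 25.3 and 11.4 CPM) and the macrophage marker Cd163 (13.2, 15.2, 10.8 and 2.05 CPM). Of the 24 list members 19 were detected in all 4 libraries and none was absent from all 4. Replicate 3 held the lowest value of 9 of the 17 members at a mean of at least 10 CPM, against 32.5% of all genes, and of 7 with TMM scaling (25.5% of all genes).

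Lysosome genes, which many cell types use, were led by Ctsb. This protease stood at 5141, 4725, 5437 and 4575 CPM (2811 ± 231 TPM) and took most of the reads of its list. Ctsd, another cathepsin, reached 895 ± 153 TPM and the phosphatase Acp5 580 ± 41.8 TPM. Ctsl was low at 4.41 ± 1.95 TPM. Monocyte genes were low, with Lyz2, the lysozyme of myeloid cells, at 101, 88.1, 134 and 99.9 CPM and Ly6c2, the monocyte antigen Ly6C, at 8.45, 1.97, 13.3 and 12 CPM. The monocyte genes Cx3cr1 and F13a1 had no count in at least 1 library each.

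Mpo, the myeloperoxidase of primary granules, and Prss34 were the 2 genes with a 4-fold range among the 121 with a mean of at least 1000 CPM. Mpo stood at 5827, 3966, 1457 and 413 CPM in replicates 1 to 4, a 14.1-fold range, and its rank per length ran from 11 to 427. Elane, neutrophil elastase, stood at 806, 375, 104 and 47.1 CPM. Prtn3, proteinase 3, stood at 101, 69.5, 12 and 1.72 CPM. The 3 genes ranked the libraries alike, with replicates 1 and 2 above replicate 3 and replicate 4 lowest. Replicate numbers carry no order of their own, and the order of Mpo is used below only to sort genes.

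The primary granule list is wider than its name, with members such as the membrane protein gene Ms4a3. Of its 10 members with a mean of at least 10 CPM, 5 had the order of Mpo, Mpo itself included. Elane, Prtn3, Ctsg and Ms4a3 were the others. Over all 7649 genes 348 had this order (4.55%), and 356 (4.65%) had its opposite. Ctsg, the granule protease cathepsin G, stood at 29.1, 19.1, 10.3 and 5.71 CPM, and Ms4a3, a membrane protein of granulocyte precursors, at 63.5, 48.8, 23.5 and 2.96 CPM. The list as a whole summed to 0.714%, 0.480%, 0.183% and 0.0671% of reads, a 10.6-fold range. Other members did not have this order, among them Srgn, the granule proteoglycan (145, 143, 78.5 and 98.5 CPM), and the haptoglobin gene Hp (16.1, 7.32, 38.2 and 9.84 CPM). Below that level, the factors of granulocyte development, Cebpe (19.7, 13.8, 5.47 and 0.841 CPM) and Cebpa (2.89, 2.40, 0.216 and 0.0366 CPM), also had the order.

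Basophil genes moved with it. Prss34 stood at 4105, 2139, 399 and 193 CPM, a 21.2-fold range, and Mcpt8, another basophil protease, at 188, 137, 17.2 and 15.9 CPM. Ms4a2, the beta chain of the high-affinity IgE receptor, stood at 30.2, 14.2, 6.98 and 2.27 CPM. These 3 of the 6 basophil and mast cell genes at a mean of at least 10 CPM had the order of Mpo, against 4.55% of all genes. The other 3 also kept replicates 1 and 2 above 3 and 4: Fcer1a (56.4, 19.8, 5.28 and 6.62 CPM), Cpa3 (81.3, 95, 13.5 and 15.4 CPM) and Hdc (57.5, 71.1, 14.3 and 14.2 CPM). All 6 reached 4-fold, against 11.6% of all genes and 15.7% of those at 10 to 100 CPM, where all but Prss34 lie. The mast cell protease genes Tpsb2 (0 in all 4), Tpsab1 and Cma1 (0 in 3 of 4) were absent or nearly so. The list took 0.454%, 0.248%, 0.0470% and 0.0247% of reads, and its mean of 0.193% was 0.107% without replicate 1.

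Eosinophil granule genes were split. Prg2, major basic protein, stood at 331, 190, 46.6 and 20.4 CPM and Prg3 at 17.8, 16.7, 6.21 and 4.97 CPM, both in the order of Mpo. They were 2 of 4 list members at a mean of at least 10 CPM, against 4.55% of all genes. Epx, eosinophil peroxidase, stood at 70.6, 55.5, 0.0309 and 6.84 CPM, so that replicate 3 and not replicate 4 was lowest. The chemokine receptor Ccr3 stood at 37.6, 44.7, 17.4 and 30.0 CPM. The ribonuclease genes Ear1, Ear2 and Ear6, whose near-identical copies may share reads, stayed under 3 CPM in every library.

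Stem and progenitor genes took 0.0961%, 0.0904%, 0.0731% and 0.0546% of reads, the order of Mpo with a 1.76-fold range. Kit, the stem cell factor receptor, stood at 102, 83.6, 82.6 and 19.3 CPM, and Cd34, a surface protein of progenitors, at 90.8, 169, 57.9 and 15.3 CPM. In both, replicate 4 was lowest. Sox4, a transcription factor of progenitors, went the other way with 57.4, 99.2, 90.4 and 133 CPM. Gata2, a factor of progenitors and mast cells, stood at 43.5, 39.5, 7.69 and 10.8 CPM. Myc and Meis1 had the order of Mpo as Kit did, 3 of 11 members at a mean of at least 10 CPM, against 4.55% of all genes. With TMM or DESeq2 scaling 1 of these members had it. Flt3, a receptor of early lymphoid and myeloid progenitors, stayed low at 6.94, 13.6, 1.24 and 5.96 CPM, and Procr, a stem cell antigen, had counts in replicate 1 only (0.352 CPM).

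Secondary granule genes of neutrophils followed neither pattern. Ngp, a neutrophil granule protein, stood at 122, 90.6, 535 and 133 CPM, and S100a9, a calcium-binding protein of neutrophils, at 5.35, 7.23, 47.6 and 10.5 CPM. Replicate 3 stood apart in both. All 6 neutrophil genes at a mean of at least 10 CPM were highest in replicate 3 by CPM and with TMM scaling, against 19.7% and 27.5% of all genes. None of them had the order of Mpo, and at the 4.55% of all genes few would be counted among 6. The neutrophil list took 0.0180%, 0.0145%, 0.0754% and 0.0200% of reads, and its mean of 0.0320% was 0.0175% without replicate 3. Replicate 3 also had the highest Itgam of the 4 libraries, at 15.3 CPM, and whether cells outside the gate take part in these values was not tested.

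**Figure D3:**
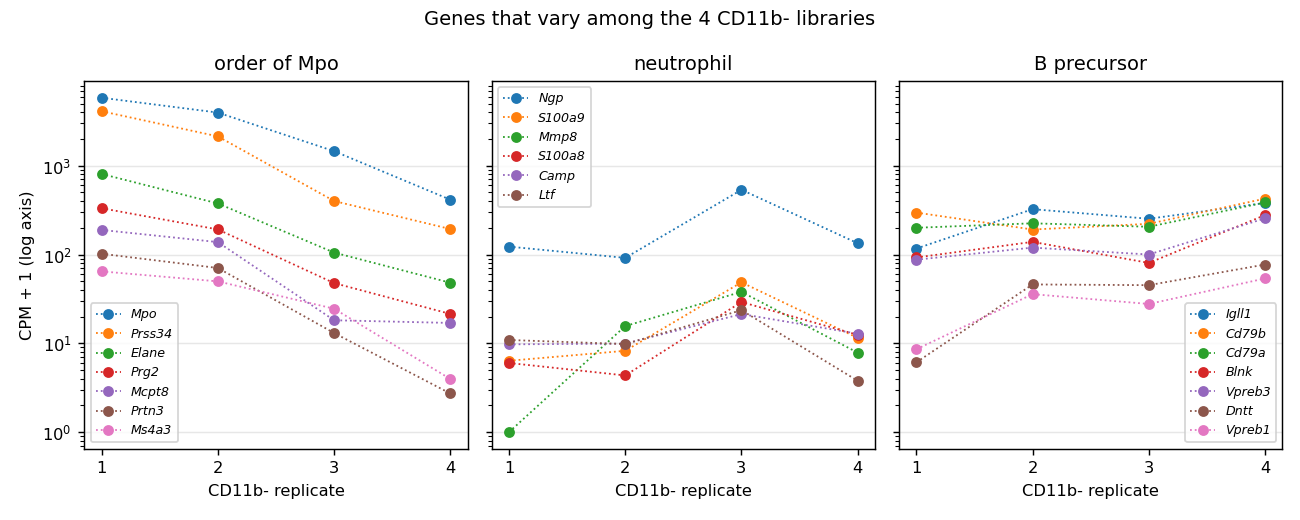
CPM + 1 (log axis) of single genes in CD11b- replicates 1 to 4, for genes in the order of Mpo (left), neutrophil genes (middle) and B precursor genes (right); dotted lines only join the points of 1 gene. Left, every gene is highest in replicate 1 and lowest in replicate 4. In the middle, all 6 genes are highest in replicate 3, which for all but Ngp also lifted them over the filter of 10 CPM. On the right, the 7 genes chosen for display are highest in replicate 4. Of all 18 B precursor genes with a mean of at least 10 CPM, 14 were highest there, against 30.5% of all genes. Among those not shown, Ebf1 was highest in replicate 3 and Ikzf1 in replicate 2.

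Counted over all genes, the order of Mpo was an ordinary one. A set of 4 libraries has 24 possible orders, which held between 226 and 484 genes each with a median of 306, against 348 for that of Mpo. Among the 887 genes with a range of at least 4-fold, 57 had the order of Mpo (0.745% of 7649 genes) and 31 its opposite (0.405%). The 24 orders held 22 to 68 such genes with a median of 31, and the order of Mpo ranked 3 among them. Of 60 genes with at least 4-fold and a mean of at least 50 CPM, 10 had it and 5 had the opposite. None of the 12 heme synthesis genes and none of the 18 B precursor genes at a mean of at least 10 CPM had it, and at the 4.55% of all genes few would be counted in lists of this size. By CPM, the opposite order was that of 8 of 64 erythroid genes, among them Alas2 and Rhag, against 4.65% of all genes. This count depends on the scaling and was not repeated with TMM. The TMM factors of 0.936 for replicate 3 and 1.03 for replicate 4 raise replicate 3 against replicate 4.

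Besides the granulocyte and basophil genes, the widest ranges in the order of Mpo came from genes of low level. Slc39a11, a zinc transporter, stood at 54.2, 23.4, 16.9 and 0.293 CPM, and Cdk5rap1, a tRNA-modifying enzyme, at 129, 44.5, 25.9 and 4.61 CPM. The elastic fibre gene Emilin1 stood at 27.9, 27.1, 16.0 and 0.146 CPM. All 3 set replicate 4 far below the rest. Lppr3, Chst13, Sepn1, Noc3l, Sumf1 and Dnah8 completed the 15 widest by the naming rule, with means of 11.1 to 22.0 CPM. In the opposite order, the cilium gene Bbs9 stood at 0, 11.1, 16.2 and 38.2 CPM, the lysosomal cystine exporter Ctns at 0.352, 14.1, 29.0 and 36.1 CPM and the lysosomal membrane gene Scarb2 at 0.916, 10.7, 17.0 and 34.5 CPM. Replicate 1 was close to 0 in all 3. Lmbr1l, Antxr2, Hdac5, Zfp280b and Csgalnact1 were the others, with means of 10.4 to 20.2 CPM.

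The promoters of Mpo, Elane and Prtn3 are printed because these 3 granule genes ranked the libraries alike and each holds the letters GAGGAAGT, which contain the core that ETS factors bind, in the 250 bases before the start site. They come from the same RefSeq table on GRCm38.p6 and run 5′ to 3′ along the gene's strand, with the match in capitals. Mpo lies at chr11:87793534-87793783, Elane at chr10:79886062-79886311 and Prtn3 at chr10:79879417-79879666, all on the + strand. The match starts at position -224 for Mpo, -85 for Elane and -95 for Prtn3.
Mpo: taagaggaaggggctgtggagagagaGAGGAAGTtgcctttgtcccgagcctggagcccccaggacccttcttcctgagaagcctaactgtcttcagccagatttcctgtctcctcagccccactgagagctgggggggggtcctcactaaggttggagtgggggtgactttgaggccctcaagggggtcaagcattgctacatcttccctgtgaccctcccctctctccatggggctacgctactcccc
Elane: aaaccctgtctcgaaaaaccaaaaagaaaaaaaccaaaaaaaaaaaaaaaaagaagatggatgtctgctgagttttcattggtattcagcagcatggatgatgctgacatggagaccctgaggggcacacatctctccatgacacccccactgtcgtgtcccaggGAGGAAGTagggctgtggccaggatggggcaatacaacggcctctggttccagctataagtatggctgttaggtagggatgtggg
Prtn3: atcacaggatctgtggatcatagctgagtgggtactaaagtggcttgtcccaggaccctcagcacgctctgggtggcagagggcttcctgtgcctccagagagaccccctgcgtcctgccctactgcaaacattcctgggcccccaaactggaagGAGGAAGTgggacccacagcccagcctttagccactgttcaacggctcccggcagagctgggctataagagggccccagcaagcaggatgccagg
Of the 57 genes in the order of Mpo with at least a 4-fold range, 44 were matched to 51 promoters. The letters GAGGAAGT on either strand were found in 5 of these (9.80%), in 2.44% of all promoters and in 2.55% of the 7621 promoters of genes with a mean of at least 10 CPM. The erythroid promoters held them in 0 of 70. The letters AGATAA were found in 5 of the 51 (9.80%), against 6.00% of those 7621 promoters. The motif was chosen with these promoters in view, so the counts are a description.

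Variation between libraries depended on abundance. For genes with a mean of 1 to 10 CPM the median coefficient of variation over the 4 libraries was 88.2%, where counting alone gives 9.91%. It was 34.2% at 10 to 100 CPM (counting 3.20%), 17.7% at 100 to 1000 CPM (1.33%) and 14.9% above that (0.446%). Spread between separate samples also holds biological and handling differences, so counting error is only its lower limit. Over the 7649 genes with a mean of at least 10 CPM, 887 (11.6%) had a highest library at least 4 times the lowest. That count was 615, 601, 569 and 593 without replicates 1, 2, 3 and 4. Leaving out any library can only narrow the range of a gene. Between pairs of libraries, 236 genes (replicates 1 and 2) to 345 genes (replicates 2 and 3) differed by at least 4-fold. Genes shifted together by a median of 0.11 on the log2 scale between replicates 1 and 3 and -0.12 between replicates 3 and 4, which scaling by library total leaves in.

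**Figure D4:**
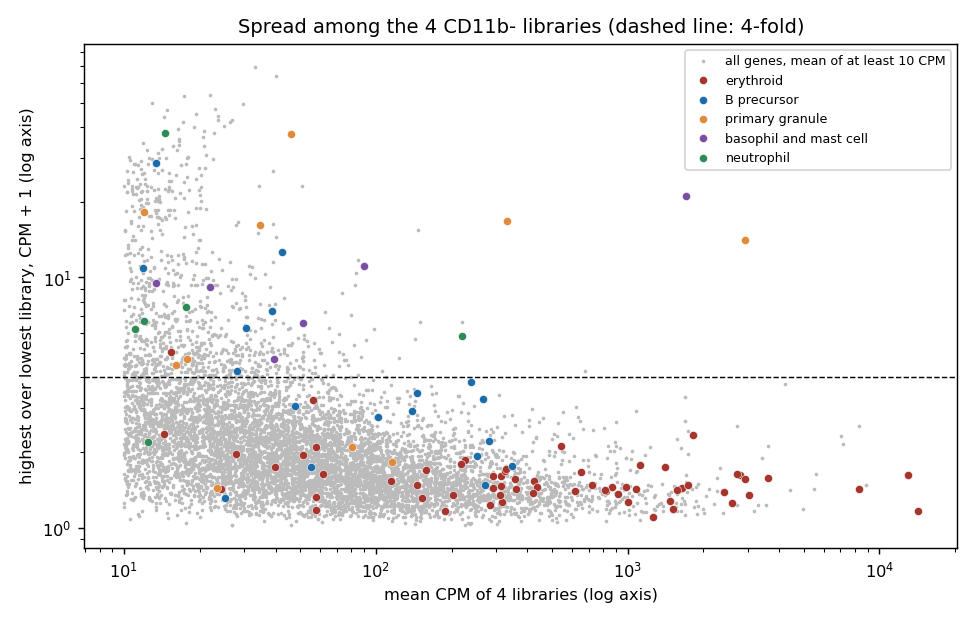
Ratio of highest to lowest library (CPM + 1, log axis) against mean CPM (log axis) for 7649 genes with a mean of at least 10 CPM, grey, with members of 5 gene groups in colour and a dashed line at 4-fold. All erythroid genes but 1 lie under the line, while Mpo, Elane and Prss34 lie above the line among abundant genes.

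The genes with the largest spread were present in some libraries and nearly absent from others. Dok2, a docking protein of hematopoietic kinases, stood at 58.2, 63.1, 0 and 40.0 CPM. Nfam1, an immune receptor with a signalling motif, stood at 37.7, 51.5, 0.0618 and 29.5 CPM. Both lacked a signal in replicate 3 alone. Rasgrp3, a Ras activator of B cells, stood at 41.7, 0, 24.9 and 41.0 CPM, Muc13, an epithelial and progenitor mucin, at 38.5, 21.5, 39.5 and 0 CPM and Slco4a1, an organic anion transporter, at 0, 46.2, 26.2 and 19.3 CPM. In these the missing library was replicate 2, 4 and 1. Glce was high in replicate 1 (58.9 CPM) and Snapc4 in replicate 2 (48.6 CPM) only. Adnp2, Mapk7, Fbp1, Prodh, Nol6 and Ppp1r16a were the others of the 15, beside Epx and Lppr3 above.

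In all, 173 genes with a mean of at least 10 CPM (2.26%) fell under 1 CPM in at least 1 library, and 53 (0.693%) had no count there. Their mean levels were low, with a median of 13.4 and a maximum of 40.3 CPM, the latter for Dok2. Of the 173, 78 were lowest in replicate 3 (1.02% of all 7649 genes) and 33, 31 and 31 in replicates 1, 2 and 4 (0.431%, 0.405% and 0.405%). Of the 173, 9 had the order of Mpo, a share near the 4.55% of all genes. None belonged to the erythroid or the division lists, of which 64 and 30 genes had a mean of at least 10 CPM, so that few would be counted at 2.26%. Over all 7649 genes replicate 3 was the lowest library in 32.5%, and with TMM scaling in 25.5%. Why it was lowest was not tested.

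Some transcripts hardly varied. Emilin2, an extracellular matrix glycoprotein, stood at 226, 224, 228 and 230 CPM and the splicing-associated gene Pnisr at 143, 145, 140 and 143 CPM. Drg1, a GTP-binding protein, stood at 307, 302, 296 and 302 CPM. The asparagine synthetase gene Asns, the transcription factor subunit Gtf2e2, the ATP synthase subunit Atp5j2, the histone methyltransferase Setd8 and the ESCRT-III subunit Chmp2a completed the 8 steadiest genes at a mean of at least 100 CPM, with ranges of 1.04-fold to 1.06-fold.

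Of the 18790 named genes, 10228 (54.4%) had counts in all 4 libraries, 1762 in 3, 1975 in 2 and 2654 in 1. In 2171 genes (11.6%) no library had a count. Families used outside the marrow made up part of these: 161 of 433 olfactory receptor genes (37.2%), 43 of 127 vomeronasal receptor genes (33.9%), 10 of 29 keratin genes (34.5%) and 92 of 239 microRNA genes (38.5%, whose mature products this protocol does not capture). Among the marker lists the genes without a count in any library were the neutrophil integrin Itgb2l, the mast cell tryptase Tpsb2, the platelet genes Gp6 and Tubb1, the dendritic cell receptor Clec9a, the collagen Col1a1, the fat cell hormone Adipoq and the immediate early gene Fosb. For a gene with 0 counts the limit is 0.0857 to 0.110 CPM per library. No erythroid, division, B precursor, lysosome or resident macrophage gene was among them.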

How the data were processed

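RNA of 4 CD11b- libraries (replicates 1 to 4) was analysed. The deposited files hold whole-number counts per gene symbol, and the authors' table of CPM equals those counts scaled to 1000000, to within 0.0005. Per the submitters' processing notes, mm9, HTSeq 0.10.0, TopHat2 and DESeq2 were used, but their roles are not stated. Not given in the sources used here are the annotation and how strand and multiply mapped reads were handled, so overlapping and antisense partners cannot be told apart. The 27 rows with numbers in place of symbols (0.420% to 0.514% of counts) were kept out of totals.

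CPM was recomputed over named genes. TPM used exon lengths by symbol from GENCODE M21, of another build, for 18586 of 18790 genes (98.9%). Libraries held 27337092 to 34996595 counts. As 1 group was described, no test between groups was run, and values carry their SD over 4 replicates. Outlying libraries were flagged by Dixon's ratio, the gap to the nearest library over the whole range. The limit was 0.829, applied to 165 gene levels and list sums in CPM. Ranges between libraries are on CPM + 1, for genes with a mean of at least 10 CPM. The members, the 30 gene lists and the motifs were chosen with earlier results of these data known. Text names followed a rule (sort genes and markers, the 10 highest genes per length and by CPM, 3 leading and all undetected members of each list, the 15 most variable, the 15 widest in the order of Mpo and 8 in the opposite order, and the 8 steadiest). Other list members were named after their values were seen, to describe their lists. Ly6g, Mcpt4, Epb41, Epb42, Ahsp, globins, Ighm, Ighd, Igha, Cavin2, Lum and Hspa1b were not analysed here; a few measured genes are not reported. Counts of order and spread were tested on simulated data with a planted order and counting error only. That checks the computation and cannot say how many genes take an order or a wide range through spread between replicates. Alternatives were TMM (edgeR 4.0.16), DESeq2 1.42.0 size factors, other filters and pseudocounts, no length, totals without the 20 most abundant genes and leaving out each library. R 4.3.3, Python 3.11.15, pandas 2.3.3 and numpy 2.4.6 were used.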

Additional observations from a re-analysis of the deposited data

Results flagged for a closer look

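In each of 14 of 165 gene levels and list sums checked, 1 library lay far from the other 3 relative to the whole range of the group. Chance marks about 1 in 20 such groups only where values follow a normal distribution, and the CPM used here were not logged. Where values are skewed upward, high libraries are flagged more easily than low ones. Genes picked for wide ranges were among the 165, and the 14 are not independent, since single genes also enter the sums. The 14 can therefore not be set against that rate. All 14 had 1 high library, which was replicate 3 in 7 cases, replicate 1 in 4, replicate 4 in 2 and replicate 2 in 1.

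In replicate 3 the neutrophil genes Ngp (535 CPM, others 90.6 to 133) and S100a9 (47.6 CPM, others 5.35 to 10.5) stood apart, and with them the sum of the neutrophil list (754 CPM, others 145 to 200.1). The erythroid factor Nfe2 (1372 CPM, others 957 to 1014), the transcription factor Tcf4 (78.9 CPM, others 37.1 to 43.0), the phosphatase gene Alpl (28.8 CPM, others 7.29 to 8.67) and the sum of the immediate early list (2421 CPM, others 1756 to 1859) were high there too. In replicate 1 the metal transporter Slc11a2 (329 CPM, others 267 to 275), Jak2 (208 CPM, others 179 to 184), the activation antigen Cd83 (208 CPM, others 52.6 to 73.9) and Glce (58.9 CPM, others 0.124 to 9.55) stood apart. In replicate 4 these were Cd79a (385 CPM, others 199 to 224) and the sum of the DNA replication list (17354 CPM, others 13770 to 14206). In replicate 2 it was Snapc4 (48.6 CPM, others 0 to 2.63).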

How the results depend on the processing

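No paired analysis was possible because 1 group was described and no groups were compared. Without the 20 most abundant genes in the total and the lists, the erythroid share fell to 4.69%, cell division stood at 2.67% and resident macrophage genes at 0.210%. As shares of counts per kb, B precursor genes took 0.334%, resident macrophage genes 0.283%, basophil and mast cell genes 0.535% and neutrophil genes 0.0949%. With fewer than 10 counts as the limit, 3474 genes were undetected in all 4 libraries. The 887 genes with a 4-fold range became 3382 at a mean of at least 1 CPM, 60 at 50 CPM and 456 with a pseudocount of 5, and 569 to 615 with 1 library left out. The 348 genes in the order of Mpo became 155 at 50 CPM, and those with 4-fold 152 at 1 CPM, 10 at 50 CPM and 32 with a pseudocount of 5. With 1 library left out these orders run over the other 3 libraries, so more genes share them by construction (1189 to 1658, and 105 to 153 with 4-fold). With TMM 334 genes had the order, 251 of them among the 348, and with DESeq2 size factors 345 and 260. All 870 recomputed levels of named genes moved by less than 1 SD under the alternatives run (scaling and leaving out a library). Leaving out 1 of 4 libraries cannot move a mean by 1 SD, so that part could not have come out otherwise. The count is therefore no measure of how steady these levels are. Depth limits genes under 1 CPM.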

Other observations

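Other gene groups of the CD11b- libraries are given as values. Btg2, an antiproliferative early response gene, stood at 1300, 1220, 1762 and 1175 CPM and Dusp1, a phosphatase of stress kinases, at 335, 341, 466 and 436 CPM. Fos (0.0704, 3.63, 2.41 and 0 CPM), Egr1 (4.44, 0.0286, 0 and 0 CPM) and Fosb (0 in all 4) were near or at 0. Among heat shock genes, Dnajb1 stood at 506, 521, 567 and 535 CPM and Hsph1 at 184, 125, 277 and 80.4 CPM, while Hspa1a had counts in replicate 1 only (1.09 CPM). Irf7, an interferon response factor on the plasmacytoid dendritic cell list, stood at 354, 401, 432 and 231 CPM, and Siglech, a receptor of those cells, at 15.2, 19.3, 19.7 and 40.8 CPM. Nkg7, a granule membrane protein of cytotoxic cells, stood at 250, 219, 132 and 84.9 CPM, the order of Mpo, while the NK receptor Ncr1 stood at 16.1, 22.7, 5.22 and 9.69 CPM and the granzyme Gzmb had counts in replicate 3 only (0.154 CPM). Lck, a T cell kinase, stood at 177, 134, 127 and 195 CPM, and the T cell receptor chain Cd3e at 0.845, 0.743, 0.154 and 2.01 CPM.

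Among the 60 genes with a 4-fold range and a mean of at least 50 CPM, several outside the lists were named after their values were seen. Pttg1, the securin of chromosome separation, stood at 805, 948, 223 and 722 CPM, low in replicate 3 alone. Lrrc8a, a volume-regulated channel subunit, stood at 43.4, 294, 152 and 109 CPM, and Supt16, a histone chaperone subunit, at 47.1, 69.0, 148 and 229 CPM, the opposite of the order of Mpo. Jarid2, a chromatin regulator, stood at 150, 126, 113 and 34.5 CPM and Lars2, a mitochondrial tRNA synthetase, at 136, 242, 156 and 41.9 CPM. Thumpd1 (103, 151, 11.9 and 73.1 CPM) and Ctr9 (113, 129, 13 and 75.1 CPM) were both lowest in replicate 3.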
